A study of Homo sapiens with 24 samples.

Results

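HEPACAM2 overexpression was examined in H1299, a human line of non-small cell lung cancer obtained from ATCC. It is one experiment of a series of 24 RNA sequencing samples in 4 lung cancer lines, and its 6 libraries were chosen by the titles that name H1299. The 3 libraries titled control carry the genotype label WT, and the 3 titled OE carry a label of HEPACAM2 overexpression. No source used here gives the vector, the promoter that drives the gene, the number of clones, the time after transfer or whether the controls received an empty vector. The series' design text calls the 3 replicates of each group independent and biological. Each library is named below by its group and number, as control 1 to 3 and OE 1 to 3. A level is a deposited normalized count, that is, reads divided by the authors' size factor for the library. A change is the difference of the mean log2(normalized count + 1), OE minus control, of 3 libraries a group. Its standard error (SE) is limma's moderated one, in which a gene's own variance is drawn toward that of genes of like level. It can therefore differ from the spread of the 3 libraries shown. A gene is called higher or lower where limma's Benjamini-Hochberg adjusted p over all 16192 genes tested was under 0.05.

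HEPACAM2 belongs to the immunoglobulin superfamily, whose members often sit in the plasma membrane and bind other cells or the matrix. Cells hold on to matrix through integrins, receptors of an alpha and a beta chain, and they remodel it with metalloproteinases and plasmin. Adhesion and growth factor signals reach the nucleus through YAP with TEAD factors, through MAP kinases and through TGF-beta receptors, and they set how much a cell invests in ribosomes, chaperones and division.

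The libraries numbered 1 stood apart from the others of their groups. The slope of a library's deviation on the GC content of the transcripts was 0.0958 log2 units per 10 GC points in control 1 and -0.154 and -0.165 in controls 2 and 3. In OE 1 it was -0.0881, and in OE 2 and 3 it was 0.153 and 0.158. The first principal component, with 59.3% of the variance, separated all OE from all control libraries, and the second, with 19.8%, set OE 1 and control 1 apart. GC content therefore runs one way in the difference of OE 1 from control 1 and the opposite way in the difference of OE 2 and 3 from controls 2 and 3. Each result below was read in both differences and after a correction of every library's GC trend. Total reads ran from 12704476 in OE 2 to 20332419 in control 1. Messenger RNAs encoded in mitochondrial DNA were high in control 3 and OE 1, with MT-CO1 at 210120.0, 225909 and 329426 in the controls and 302997, 164706 and 173547 with overexpression. Of the 13 tested, limma called none, with an unadjusted p under 0.05 in 2, and edgeR called none and DESeq2 2 lower. Without OE 1 limma called 9 lower.

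The cell line's markers were checked first. VIM, the mesenchymal intermediate filament, was abundant at 62393, 59769.9 and 57179 in the controls and 101536, 105236 and 108455 in the OE libraries (0.81, SE 0.07, adjusted p = 1.7e-04), and CDH1, the epithelial cadherin, was not among the 20707 genes listed. Of 11 fibroblast markers 4 were listed, with a summed level of 18.4 to 40.1 in the controls and 21.4 to 31.9 with overexpression, and COL1A2, COL3A1, LUM and PDGFRA were not among them. Of 14 leukocyte markers 6 were listed, summing to 86.4 to 103 and 47.3 to 65.0, without PTPRC. Of 9 endothelial markers 6 were listed, summing to 376 to 622 and 409 to 609, without CDH5. The leukocyte sum was lower in every OE library, mostly through ITGAM, which held 62.0, 70.5 and 74.9 in the controls and 37.5, 33.2 and 46.6 with overexpression. The other listed leukocyte markers reached at most 14.3. Of 22 epithelial markers 12 were listed, and they summed to 16924 to 19686 and 14410 to 16524, lower in every OE library and mostly from KRT8 and KRT18. Neither of these keratins was called. The 6 markers tested had a median change of 0.52, and it was -0.19 between OE 1 and control 1. KRT7 was called higher, at 41.0, 16.4 and 28.1 and 45.5, 53.1 and 81.7. Its call was lost without OE 2, OE 3, control 2 or control 3. The part of these sums in the results was not tested. Of 6 neuroendocrine markers 4 were listed, summing to 68.5 to 88.4 and 79.95 to 99.9, without INSM1 and NCAM1.

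HEPACAM2 itself (ENSG00000188175, chr7:93188586-93226524 on the minus strand of GRCh38) was almost absent from the controls, at 3.49, 3.07 and 2.08, and abundant with overexpression, at 27257, 24999.9 and 23710.2. The controls held 9 reads in all and the OE libraries 76382. The change was 12.69 (SE 0.15, adjusted p = 3.6e-10). The OE libraries lay close together, at 25322 ± 1795 (mean ± SD, n = 3), with OE 1 the highest. Reads from the introduced copy and from the cell's own gene are not told apart by these counts.

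The largest rises held in every OE library. MMP2, the gelatinase that cuts basement membrane collagen (chr16:55389700-55506691), had 4.36, 5.11 and 4.16 in the controls and 128, 119 and 141 with overexpression (4.56, SE 0.22). SYTL5, a partner of RAB27 in vesicle transport, had 6.98, 4.09 and 3.12 and 83.0, 59.7 and 60.6 (3.62, SE 0.32). SLC37A2, a sugar phosphate carrier, had 16.6, 20.4 and 11.4 and 124, 105 and 127 (2.83, SE 0.24). All OE libraries of these genes lay above all controls. MMP2 and SYTL5 were under 10 in every control and were tested only because their OE mean reached 10. OLFML2A went from 44.5, 27.6 and 21.8 to 171, 247 and 187, with control 1 the highest control. COL13A1, a transmembrane collagen, went from 155, 135 and 122 to 758, 827 and 939 (2.61, SE 0.13, adjusted p = 1.2e-05). ABCC3, an exporter of organic anions, rose by 2.63 (SE 0.25) and the kinase STK32A by 2.66 (SE 0.36).

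The largest falls were led by ANKRD1, a nuclear ankyrin repeat protein and a target of YAP (chr10:90912096-90921276), at 1093, 1398 and 1469 in the controls and 99.9, 87.6 and 77.3 with overexpression (-3.88, SE 0.14). SALL3, a zinc finger factor, fell from 2203, 1651 and 1871 to 442, 601 and 501 (-1.89, SE 0.14, adjusted p = 8.9e-05). ADM, the vasodilator peptide adrenomedullin, fell from 544, 425 and 483 to 113, 126 and 152 (-1.89, SE 0.14). No OE library of these genes reached any control. BIRC3, an inhibitor of apoptosis, fell from 3364, 4109.5 and 4063 to 1097, 1054 and 1026 (-1.85, SE 0.09, adjusted p = 1.2e-05). GRPR, the receptor of gastrin-releasing peptide, fell from 130.0, 154 and 124 to 46.4, 31.9 and 40.4 (-1.77, SE 0.19). LY6K, a membrane-anchored antigen, fell from 152, 117 and 137 to 30.3, 43.8 and 36.9 (-1.85, SE 0.19). In BIRC3, GRPR and LY6K the OE levels were alike across libraries. FOSB, an immediate early factor, was the least even of the falls, at 312, 389 and 271 and 179, 57.1 and 65.9, with OE 1 between the controls and the other OE libraries. The rises and falls named here kept their call in all 17 alternative fits.

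**Figure D1:**
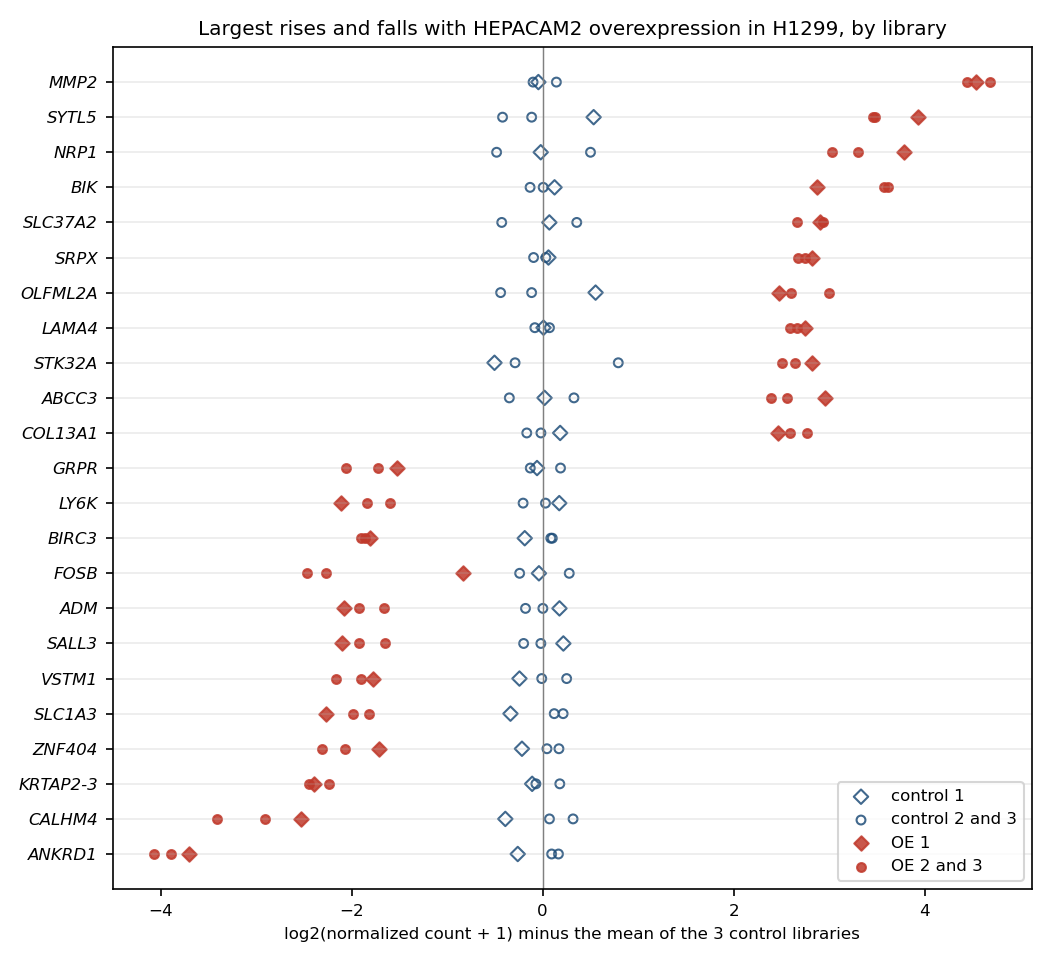
Each row is a gene and each point a library, placed by its log2(normalized count + 1) minus the mean of the 3 controls, with diamonds for the libraries numbered 1 and circles for the others, open for control and filled for OE. In all 23 genes the OE points lie on one side of all control points, and FOSB has OE 1 closest to the controls.

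Of the genes tested, 13.5% were called higher and 15.3% lower, 2181 and 2484 genes. All OE libraries lay above all controls in 20.5% of genes and below them in 22.8%. The median change over all genes was 0.0018. The count of 4665 calls was 2859 without OE 2, 2727 without OE 3, 2849 without control 2, 2674 without control 3, and 8919 without both libraries numbered 1. Of the 4665 calls, 1506 (714 higher and 792 lower) were made in the same direction in all 17 alternatives. The difference of OE 1 from control 1 alone had the sign of the call in 4563 of the 4665, though these libraries were part of the fit. The gene lists described below were read against these shares.

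**Figure D2:**
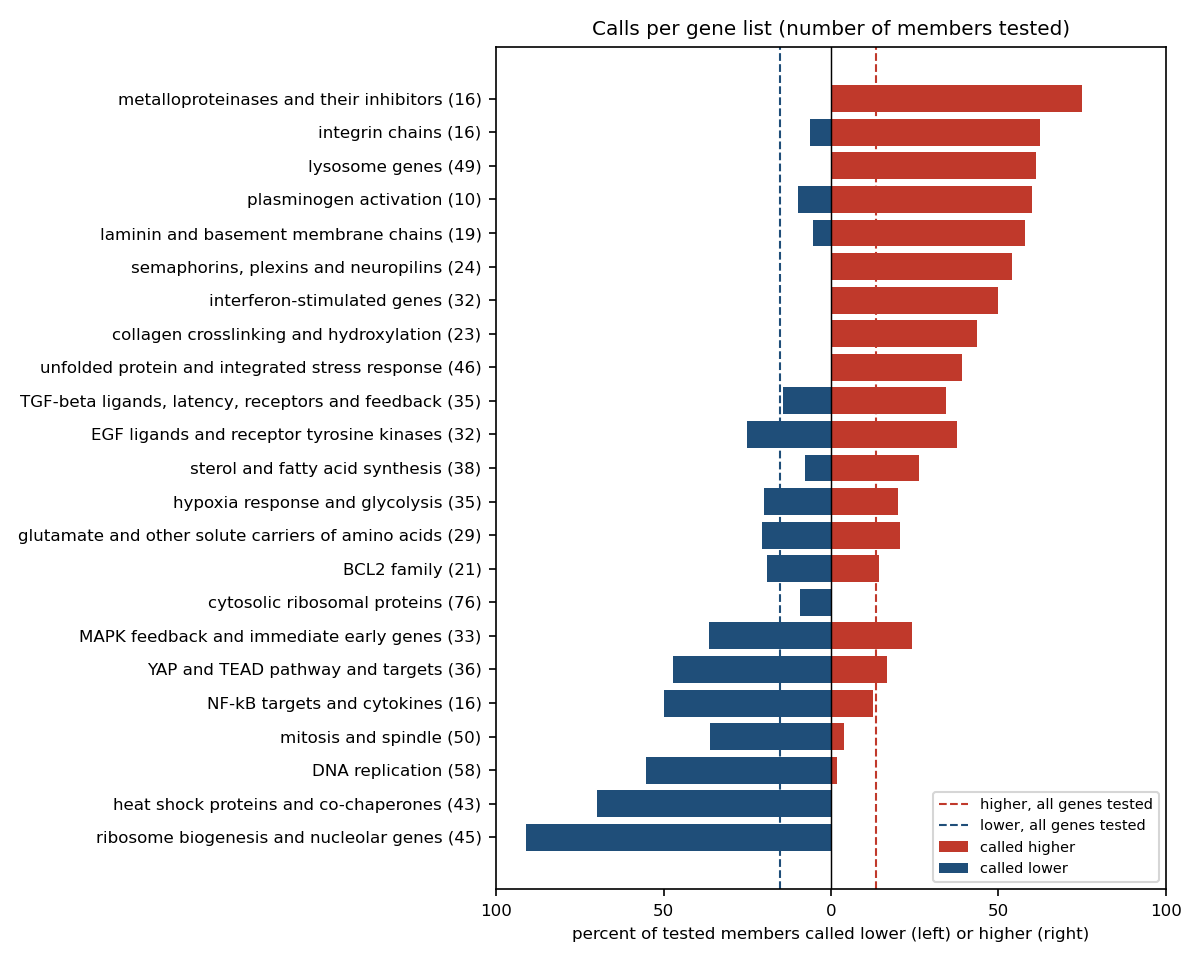
Bars give the percent of the tested members of each list that were called lower (left, blue) or higher (right, red), with the number tested in brackets and dashed lines at the shares of all genes, 15.3% lower and 13.5% higher. Ribosome biogenesis lies furthest to the left and the metalloproteinases with their inhibitors furthest to the right.

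Genes that build ribosomes were lower with overexpression almost without exception. Of the 45 genes of ribosome biogenesis and the nucleolus listed, all of them tested, 41 were called lower and the other 4 were not called, and in 43 every OE library lay below every control. Their median change was -0.73, it was -0.69 between OE 1 and control 1 and -0.70 between the other libraries, and -0.74 after the GC correction. The 45 differences of OE 1 from control 1 were all negative. With 1 library left out 39 to 41 were called lower, and with the GC correction all 45 were.

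The genes not called were NPM3, NHP2, BOP1 and PPAN. RNA polymerase I transcribes the ribosomal RNA precursor, and its second largest subunit POLR1B fell from 1491, 1757 and 1694.1 to 999.9, 950.2 and 832 (-0.83, SE 0.10). The largest subunit, POLR1A, fell from 2021, 1908 and 2019.6 to 1411, 1539 and 1407 (-0.45, SE 0.07). The abundant nucleolar proteins NPM1 and NCL, which chaperone and fold the precursor, were lower in every OE library. NPM1 went from 48813, 57799.9 and 59538 to 33419, 28157 and 28740.3 (-0.88, SE 0.10), and NCL from 25872, 27853 and 28682 to 17114, 15769 and 16147 (-0.75, SE 0.07). In both, controls 2 and 3 were highest and OE 1 was the highest OE library. Among the snoRNP proteins that direct RNA modification, NOP56 fell from 6237, 7162 and 7970.1 to 4458, 3546 and 3585 (-0.88, SE 0.12). The pseudouridine synthase DKC1 fell from 4459, 5240.1 and 5329 to 3416, 2953 and 3021 (-0.68, SE 0.09). The methyltransferase FBL fell less, from 15159, 15538 and 14922 to 11188, 11035 and 12352 (-0.40, SE 0.07). OE 1 was nearest to the controls in NOP56 and DKC1 but not in FBL. NOLC1, which escorts these particles, changed by -1.001 (SE 0.08). The helicase DDX21 showed one of the larger changes, from 8610.2, 10038 and 10335 to 4834, 4599.7 and 4320.1 (adjusted p = 1.3e-04). Assembly factors of the small subunit fell by nearly the same amount. PNO1 went from 1436, 1532 and 1537 to 752, 747 and 686 (-1.04, SE 0.08). BYSL went from 1677, 1519 and 1615 to 707, 843 and 783 (-1.05, SE 0.09). For the large subunit, NOP16 fell from 1770.4, 1529 and 1554 to 688, 808 and 793 (-1.08, SE 0.10). GNL3, a nucleolar GTPase, fell from 2165, 2459.6 and 2686 to 1312, 1177 and 1057 (-1.04, SE 0.11). MYC, a factor known to drive many of these genes, was itself lower, at 4035, 3435 and 3468 and 2127, 2678 and 2418 (-0.60, SE 0.10, adjusted p = 0.0032), and no OE library reached a control.

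MYC and its relatives, like the lysosomal factor TFEB, bind the E-box CACGTG. In RefSeq promoter windows of GRCh38.p14, from 250 bases before to 50 after a gene's start, the motif stood in 16 of the 36 ribosome biogenesis genes that had a window, 44.4%, against 12.5% of the 11287 genes tested that had one. The motif reads the same on both strands. Whether it bears on the falls was not tested. The window of PNO1 (chr2:68157638-68157937, plus strand) is shown because the gene was among the larger falls, with its E-box in capitals.
PNO1: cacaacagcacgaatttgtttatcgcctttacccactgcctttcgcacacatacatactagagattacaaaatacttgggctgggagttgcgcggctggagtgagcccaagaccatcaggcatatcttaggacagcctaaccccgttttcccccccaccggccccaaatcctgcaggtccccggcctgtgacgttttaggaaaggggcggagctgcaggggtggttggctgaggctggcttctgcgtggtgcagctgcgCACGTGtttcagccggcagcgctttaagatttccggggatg

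Calls among the ribosomal proteins themselves depended on the libraries. Of 76 genes of cytosolic ribosomal proteins 7 were called lower and the other 69 were not called, with a median of -0.09, and 9 had every OE library below every control. The count lower was 14 without OE 1, 21 without control 1, 2 without OE 2, 3 without OE 3, and 2 without control 2 and likewise without control 3. Without both libraries numbered 1, 43 were called lower and 24 higher. Many ribosomal protein genes have near-identical copies, among which reads are hard to assign. The difference between this list and the biogenesis list was not tested.

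Chaperones of the cytosol and mitochondria were lower as well. Of 46 heat shock proteins and co-chaperones listed 43 were tested, 30 were called lower and the other 13 were not called, and the median was -0.45 (-0.43 between OE 1 and control 1, -0.42 after the GC correction). HSP90AA1, the inducible cytosolic HSP90, held 120638, 136692 and 146145 in the controls and 84849, 75233 and 73134 with overexpression. HSPA8, the constitutive HSP70, held 44857, 53163 and 56488 and 32569, 28620.2 and 26732. OE 1 was the OE library nearest to the controls in both, and no library crossed over. The changes were -0.79 (SE 0.10) and -0.81 (SE 0.11). The chaperonin TRiC folds actin and tubulin, and its subunit TCP1 fell from 16122, 17360.1 and 18014 to 10550.3, 9807 and 9649 (-0.78, SE 0.07). CCT2 fell from 10676, 12391 and 12918 to 7927, 6784 and 6696 (-0.75, SE 0.10). In the mitochondrion the HSP70 member HSPA9 fell from 10116, 10986 and 11604 to 6839, 6349 and 6264 (-0.75, SE 0.08), and the folding cage and its lid, HSPD1 and HSPE1, changed by -0.89 (SE 0.08) and -0.85 (SE 0.13). CHORDC1, an HSP90 co-chaperone, had the largest change, at 1608, 1909.6 and 2026 and 900.0, 771 and 685 (-1.24, SE 0.12). The stress-inducible HSPA1A was not called, at 805, 609 and 642 and 550.4, 714 and 743 (-0.04, adjusted p = 0.87), and its difference was -0.55 between OE 1 and control 1 and 0.22 between the others. It was called lower after the GC correction (-0.23) and higher without both libraries numbered 1 (0.22). The small heat shock protein HSPB1 was not called either, at 3207, 2074 and 2106 and 2337, 3642 and 3817 (0.40, adjusted p = 0.21), but was called higher without OE 1 (adjusted p = 0.025), without control 1 (0.041) and without both (5.5e-13).

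The heat shock factor binds alternating triplets, searched here on both strands as GAANNTTCNNGAA with overlapping matches allowed. It stood in the windows of 7 of the 39 chaperone genes that had one, 17.9%, against 0.443% of all genes tested with a window. The factor's gene HSF1 was not called, and a link of the motif to the falls was not tested. Windows of a pair of them are shown with the matching bases in capitals, CHORDC1 (chr11:90223000-90223299, minus strand) as the largest fall and HSPA8 (chr11:123062087-123062386, minus strand) as an abundant one.
CHORDC1: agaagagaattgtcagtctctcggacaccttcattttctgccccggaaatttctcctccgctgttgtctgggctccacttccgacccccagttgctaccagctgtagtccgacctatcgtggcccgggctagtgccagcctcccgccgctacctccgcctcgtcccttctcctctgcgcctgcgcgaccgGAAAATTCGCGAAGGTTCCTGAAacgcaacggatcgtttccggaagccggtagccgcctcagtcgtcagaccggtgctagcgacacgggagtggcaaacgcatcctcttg
HSPA8: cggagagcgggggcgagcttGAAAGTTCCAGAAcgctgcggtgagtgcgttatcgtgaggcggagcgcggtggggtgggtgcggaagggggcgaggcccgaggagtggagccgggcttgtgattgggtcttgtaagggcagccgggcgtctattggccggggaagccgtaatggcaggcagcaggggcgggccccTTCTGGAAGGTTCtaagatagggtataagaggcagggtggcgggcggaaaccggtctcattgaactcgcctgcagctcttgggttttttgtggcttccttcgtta

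Lysosomal genes moved the opposite way. Of 50 listed 49 were tested, 30 were called higher and the other 19 were not called, and the median was 0.45 (0.45 between OE 1 and control 1, 0.44 between the others, 0.44 after the GC correction). With 1 library left out 24 to 32 were called higher. Of the proteases, CTSB held 3223, 3004 and 2986 in the controls and 5264, 5545 and 5662 with overexpression (0.84, SE 0.07, adjusted p = 1.3e-04). CTSZ held 711, 774 and 686 and 1516, 1448 and 1442 (1.02, SE 0.08). CTSF held 456, 377 and 320.3 and 852, 921 and 993 (1.27, SE 0.13). All of these cathepsins were higher in every OE library than in any control. The peptidase TPP1 rose from 512, 542 and 573 to 1022, 998 and 872 (0.83, SE 0.09). Enzymes and helpers of sphingolipid breakdown rose too. The sulfatase ARSA went from 142, 112 and 90.5 to 230.1, 219 and 223 (0.98, SE 0.17). The saposin precursor PSAP, far more abundant, went from 8025, 7364 and 7141 to 10976, 11450.2 and 11548 (0.59, SE 0.07). Proteins of the lysosomal membrane were also higher. CD63 rose from 5928, 6067 and 5906 to 10189, 9384 and 10287 (0.74, SE 0.07). LAMP2 rose from 1661, 1972 and 1988 to 2648, 2376 and 2426 (0.41, SE 0.09). CTSD was less steady, with 784, 419 and 488 in the controls and 796, 1135 and 1064 with overexpression, and OE 1 differed from control 1 by 0.02. Its adjusted p of 0.026 was 0.087 without OE 2, 0.085 without OE 3, 0.086 without control 2 and 0.091 without control 3.

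The E-box stood in the windows of 10 of the 32 lysosomal genes that had one, 31.2%, against the 12.5% of all genes. It also stood in 22.2% of the windows of YAP and TEAD genes and in 7.69% of those of chaperone genes. TFEB, TFE3 and MITF, themselves on the lysosomal list, were not called. A link of the motif to the rises was not tested. CTSF (chr11:66568557-66568856, minus strand) is shown as the cathepsin of the largest rise, with its motifs in capitals.
CTSF: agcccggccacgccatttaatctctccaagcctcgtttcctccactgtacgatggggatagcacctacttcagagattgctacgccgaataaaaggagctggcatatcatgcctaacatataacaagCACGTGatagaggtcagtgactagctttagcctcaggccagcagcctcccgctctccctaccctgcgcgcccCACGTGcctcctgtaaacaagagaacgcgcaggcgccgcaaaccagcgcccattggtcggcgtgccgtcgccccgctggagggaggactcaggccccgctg

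**Figure D3:**
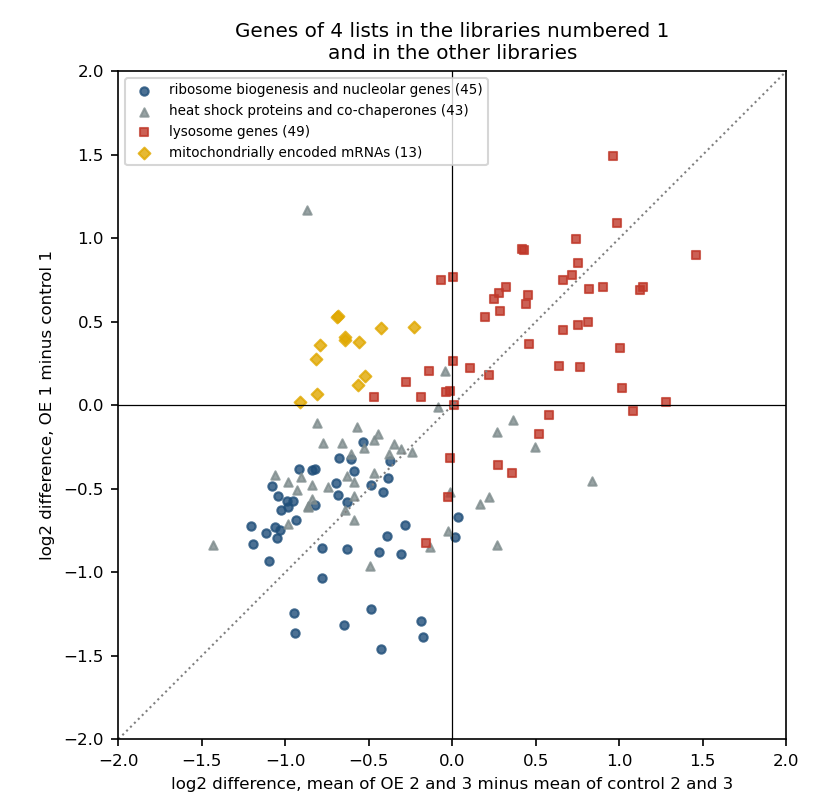
Each point is a gene of one of 4 lists, placed by its log2 difference between OE 2 and 3 and controls 2 and 3 (horizontal) and between OE 1 and control 1 (vertical), with a dotted line where both are equal. Ribosome biogenesis genes (circles) lie below 0 on the vertical axis throughout, lysosomal genes (squares) mostly above 0 vertically and horizontally, and mitochondrially encoded mRNAs (diamonds) above 0 vertically and below 0 horizontally.

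Integrin chains shifted unevenly. Of 21 listed 16 were tested, 10 were called higher and 1 lower, with a median of 0.71 (0.56 between OE 1 and control 1). Among beta chains, ITGB4, the laminin receptor chain of hemidesmosomes, held 112, 93.0 and 83.2 in the controls and 399, 527 and 584 with overexpression (2.37, SE 0.17). ITGB8, which activates latent TGF-beta with the alpha V chain, held 17.5, 12.3 and 10.4 and 60.7, 62.4 and 48.3 (2.04, SE 0.26). ITGB3, the vitronectin receptor chain, held 26.2, 29.6 and 23.9 and 103, 95.6 and 108 (1.91, SE 0.18). These low-level chains rose several-fold in each OE library. ITGB5 rose from 2011, 1852 and 1724 to 3029, 3293 and 3378 (0.80, SE 0.08), and ITGB1, the common partner, only from 12542, 14137 and 13778 to 18001, 16832 and 16307 (0.34, SE 0.08). Of the alpha chains for collagen, ITGA2 rose from 281, 306 and 267 to 1005, 1051 and 978 (1.83, SE 0.09). ITGA10 rose from 93.4, 106 and 104 to 327, 220.3 and 239 (1.35, SE 0.17). The level of ITGA10 was highest in OE 1. The fibronectin chain ITGA5 rose by 0.63 (SE 0.09). The laminin-binding alpha chains parted. ITGA3 rose from 11372, 8033 and 7731 to 13375, 19338 and 18880.5 (0.93, SE 0.18). ITGA6, the partner of ITGB4, fell from 12898, 13622 and 15004 to 10613, 10293 and 9608 (-0.44, SE 0.08). ITGA3 differed by 0.23 between OE 1 and control 1 and by 1.28 between the others. ITGAV was not called, at 1327, 1641 and 1541 and 1815, 1873 and 1717 (0.27, adjusted p = 0.059), but was called higher after the GC correction (adjusted p = 3.2e-04) and without both libraries numbered 1 (0.014).

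Laminins are alpha-beta-gamma trimers of basement membrane, and several alpha and beta chains were called higher while the common gamma chain was not called. Of 25 genes of laminin and basement membrane listed 19 were tested, 11 were called higher and 1 lower, with a median of 0.63 (0.42 after the GC correction). The count higher was 7 without OE 2, 7 without OE 3 and 7 without control 3. LAMA4 held 24.4, 25.6 and 22.9 in the controls and 169, 151 and 159 with overexpression (2.67, SE 0.16). LAMA3 held 76.8, 73.6 and 73.8 and 225, 208 and 187 (1.45, SE 0.13). LAMA2 held 292, 333 and 276 and 649, 551 and 544 (0.95, SE 0.11). The OE libraries of each lay well above the controls. The beta chain LAMB1 rose from 1399, 1442 and 1452 to 3387, 3064 and 3052 (1.14, SE 0.07). LAMB2 rose from 1064, 935 and 858 to 1367, 1484 and 1549.9 (0.63, SE 0.10). LAMC1, the gamma chain of most trimers, was not called, at 2858, 2945 and 2957 and 3297, 3036 and 2820.3 (0.06, adjusted p = 0.59). LAMA5 rose by 1.34 (SE 0.22), with a difference of 0.50 between OE 1 and control 1 and 1.76 between the others. LAMC3 fell from 123, 90.0 and 101 to 32.1, 70.3 and 47.4, and its adjusted p of 0.016 was 0.057 without OE 3 and 0.055 without control 3. NID1, which links laminin to collagen IV, rose from 332, 333 and 317 to 561, 605 and 561 (0.81, SE 0.09).

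The enzymes that cut matrix rose together with their inhibitors. Of 25 genes on the list of metalloproteinases and inhibitors 16 were tested, 12 were called higher and the other 4 were not called. The 12 include BSG, which is neither a metalloproteinase nor an inhibitor. The median was 0.81 (0.58 between OE 1 and control 1), and the count higher was 7 without OE 2 and 7 without control 3. MMP14, the membrane-bound protease that activates MMP2, held 2938, 2329.7 and 2229 in the controls and 8061, 10448 and 10447 with overexpression (1.95, SE 0.14). TIMP2, an inhibitor that also bridges MMP14 and MMP2, held 2755, 2477 and 2211 and 5931, 6715 and 6728 (1.38, SE 0.10). With MMP2, all members of this activating trio were higher in every OE library. MMP2 was under 10 in every control and was tested only because its OE mean reached 10. The collagenase MMP1 rose from 89.9, 114 and 84.2 to 513, 458 and 403 (2.25, SE 0.15). The stromelysin MMP11 rose from 48.0, 40.9 and 37.4 to 145, 204 and 189.8 (2.06, SE 0.18). The inhibitor TIMP1 rose by less, from 2954, 2568 and 2683 to 3909.5, 4158 and 4181 (0.58, SE 0.08).

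In the plasmin system an activator and an inhibitor of the serpin family rose. PLAU, the urokinase activator of plasminogen, held 9842, 9674 and 9822 in the controls and 16774, 17495 and 16939.6 with overexpression (0.80, SE 0.06, adjusted p = 1.1e-04). The groups did not overlap. SERPINE2, a serpin that inhibits this and other proteases, rose more, from 126, 154 and 132 to 784, 727 and 700.3 (2.42, SE 0.11). S100A10, a plasminogen receptor subunit, rose from 1541, 1449 and 1442 to 2111, 2312 and 2388 (0.62, SE 0.08). Of 10 tested genes of the system, out of 13, 6 were called higher and 1 lower.

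Some genes that crosslink or process collagen were higher too. Of 23 tested of 27, 10 were called higher and 13 were not called, with a median of 0.37, and 6 were called higher without OE 3. The oxidase LOXL1 held 375, 230.0 and 185 in the controls and 846, 1332 and 1388 with overexpression (2.20, SE 0.28), and control 1 was the highest control. LOX itself rose from 151, 140.1 and 144 to 213, 204 and 232 (0.58, SE 0.12). The procollagen protease BMP1 rose from 295, 241 and 235 to 476, 532 and 474 (0.95, SE 0.12).

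Receptors and ligands of the semaphorin family, guidance cues that act on migrating cells, rose as well. Of 31 listed 24 were tested, 13 were called higher and 11 were not called, with a median of 0.52 (0.36 between OE 1 and control 1, 0.79 between the others, 0.40 after the GC correction). The members' transcripts had a median GC content of 59.6%, against 48.1% over all genes. NRP1, the co-receptor of class 3 semaphorins and of VEGF, held 6.11, 9.20 and 4.16 in the controls and 98.1, 70.3 and 58.0 with overexpression (3.37, SE 0.33). NRP2 held 152, 129 and 149 and 230.1, 232 and 257 (0.74, SE 0.12). OE 1 was the highest OE library for NRP1 and the lowest for NRP2. Of the signalling receptors, PLXNA3 rose from 329, 230.0 and 231 to 473, 537 and 525 (0.97, SE 0.15). PLXNB1 rose from 82.0, 66.4 and 53.0 to 144, 143 and 141 (1.10, SE 0.18). PLXND1 rose from 245, 200.4 and 197 to 315, 433 and 402 (0.83, SE 0.15). The groups of these plexins did not overlap, and control 1 was the highest control in each. The scarce PLXNB3 rose from 5.24, 2.04 and 4.16 to 16.1, 26.5 and 22.8 (2.28, SE 0.40). Of the ligands, SEMA3F rose from 20.1, 13.3 and 12.5 to 42.8, 59.7 and 67.7 (1.83, SE 0.28). SEMA3B rose from 2.62, 6.13 and 6.24 to 15.2, 23.9 and 32.5 (2.06, SE 0.42). In both ligands OE 1 was the lowest OE library. NRP1, PLXNB3 and SEMA3B, counted among the 13, were under 10 in every control. They were tested only because their OE mean reached 10, the minimum for a test. The transmembrane SEMA6B rose from 113, 88.9 and 56.2 to 187, 372 and 373 (1.83, SE 0.33). The groups did not overlap, and OE 1 was again the lowest OE library. Of 16 tested Eph receptors and ephrins, another guidance family, 4 were called higher and 12 were not called, and 2 were called higher without OE 3 or without control 2. The median was 0.25 and was 0.04 after the GC correction. EPHB2 was at 222, 173 and 156 in the controls and 399, 494 and 475 with overexpression (1.32, SE 0.15).

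**Figure D4:**
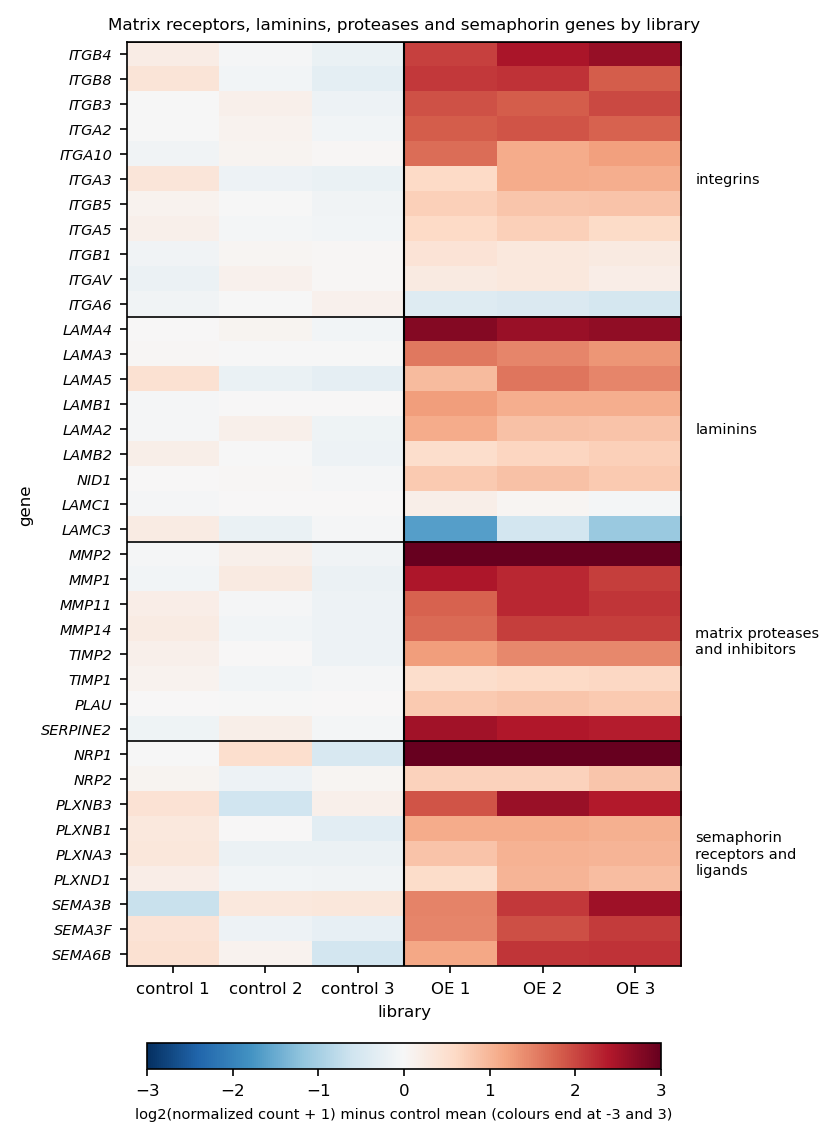
Each row is a gene and each column a library, coloured by log2(normalized count + 1) minus the control mean, with colours ending at -3 and 3. The OE columns are red for most integrins, laminins, proteases and semaphorin genes and blue for ITGA6 and LAMC3, and OE 1 is paler than OE 2 and 3 in LAMA5 and SEMA6B.

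Immunoglobulin-like adhesion molecules, the family of HEPACAM2, showed no common direction. Of 31 tested of 51, 7 were called higher, HEPACAM2 among them, and 5 lower, with a median of 0.18. CNTN1, an axonal contactin, rose from 227, 248 and 196 to 676, 599.8 and 573 (1.46, SE 0.12). The laminin receptor BCAM rose from 710.2, 455 and 485 to 1001, 1269 and 1321 (1.14, SE 0.18). The groups did not overlap in either. ALCAM fell from 239, 267 and 249 to 136, 111 and 118 (-1.05, SE 0.13). VSTM1, known from leukocytes, fell from 219, 258 and 309 to 74.9, 57.1 and 68.5 (-1.95, SE 0.17). Of 12 tested cadherins and desmosomal genes 3 were called higher and 2 lower. The count higher was 1 without OE 2, OE 3 or control 2, 5 without control 1 and 2 without control 3. The plakophilins PKP2 and PKP4 fell by 0.90 (SE 0.10) and by 0.53 (SE 0.07) on the log2 scale.

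Genes of the TGF-beta family moved both ways. Of 35 tested of 41, 12 were called higher and 5 lower, with a median of 0.16. Latent TGF-beta binding proteins tether the inactive ligand to matrix. LTBP1 held 168, 175 and 199 in the controls and 748, 673 and 667 with overexpression (1.94, SE 0.11). LTBP2, which does not bind the latent ligand, held 1029.6, 858 and 804 and 2843, 3462 and 3224 (1.83, SE 0.11). LTBP3 held 962, 707 and 606 and 1742, 2419 and 2344 (1.53, SE 0.19). Each was higher in all OE libraries. LTBP4 held 6305, 4022 and 3992 and 5937, 8754 and 8711, with OE 1 -0.09 from control 1, and its adjusted p of 0.035 was 0.11 without OE 2 or without OE 3 and 0.12 without control 2 or without control 3. The ligand TGFB1 was not called, at 5712, 3691 and 3418 and 4353, 6666 and 6655 (0.47, adjusted p = 0.15). Its adjusted p was 0.027 without OE 1, 0.018 without control 1, 0.035 after the GC correction and 3.9e-14 without both libraries numbered 1. The receptor TGFBR2 rose from 986, 1093 and 982 to 1697, 1600.5 and 1493 (0.65, SE 0.08). Its effector SMAD3 rose from 2488, 2635 and 2429 to 4006, 3894 and 3667 (0.61, SE 0.07). The feedback inhibitor PMEPA1 rose from 99.5, 72.6 and 56.2 to 165, 265 and 231 (1.53, SE 0.24). ID1, ID2 and ID3 are classical targets of BMP signals and block differentiation factors. ID1 fell from 2202, 1249 and 1335 to 418, 658 and 641 (-1.46, SE 0.24). ID2 fell from 83.8, 96.1 and 97.8 to 32.1, 42.5 and 36.0 (-1.31, SE 0.18). ID3 fell from 1148, 930.3 and 873 to 315, 402 and 373 (-1.43, SE 0.13). The ID genes were lowest in OE 1. The ligand BMP6 fell with them, from 643, 509 and 489.8 to 216, 255 and 249 (-1.18, SE 0.13). No OE library of these reached a control.

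Targets of YAP and TEAD, the pair that reads cell shape and tension, were more often lower than higher. Of 36 tested genes of the pathway, out of 37, 17 were called lower and 6 higher, with a median of -0.24 (-0.25 between OE 1 and control 1). The TEAD partner TEAD1 fell from 1976, 2281 and 2301 to 1181, 1224 and 1147 (-0.88, SE 0.08). TEAD4 fell from 1564, 1300.3 and 1362 to 835, 967 and 962 (-0.61, SE 0.10). WWTR1, which encodes the coactivator TAZ, rose from 1859, 1946 and 1703 to 2528, 2531 and 2354 (0.43, SE 0.08). TEAD1, TEAD4 and WWTR1 had no overlap between the groups. TEAD2 went from 442, 399.7 and 359 to 471, 504 and 550.0 (0.35), and its adjusted p of 0.041 was 0.11 without OE 2 or without control 2, 0.16 without OE 3 or without control 3 and 0.072 after the GC correction. TEAD3 was not called (0.10, adjusted p = 0.62). YAP1 went from 3542, 3910.2 and 3799 to 3224, 3331 and 3164 (-0.21, adjusted p = 0.0499), and its adjusted p was 0.079 to 0.18 without OE 1, OE 2, OE 3, control 2 or control 3 and 0.17 after the GC correction. The family thus had no single direction. Upstream, the Hippo scaffold WWC1 fell from 1747, 1589.6 and 1574 to 657, 705 and 704 (-1.25, SE 0.08), with no overlap. AMOTL1, which can hold YAP in the cytoplasm, rose from 654, 659 and 630.2 to 1084, 1230.2 and 1129 (0.82, SE 0.08). VGLL4, a competitor of YAP for TEAD, rose from 585, 509 and 518 to 938, 1208 and 1191 (1.04, SE 0.12). Targets moved both ways. CCN1, a matricellular protein, held 18400.1, 16540.3 and 18184 and 10425, 10764 and 10231 (-0.76, SE 0.07). CCN2, its relative, held 4758, 4317 and 4819 and 2358, 2544 and 2305 (-0.95, SE 0.08). The kinase NUAK2 fell from 274, 316 and 265 to 99.9, 119 and 115 (-1.35, SE 0.13). These falls had no overlap between the groups. NT5E, an ectonucleotidase, rose from 12399.6, 13237 and 12284 to 18589, 17696 and 17454 (0.50, SE 0.07). MYOF, a membrane repair protein, rose from 6275, 7146 and 6949 to 8952, 8462 and 8163 (0.33, SE 0.08). AXL, F3, GADD45A and PTPN14 were not called.

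The core of the TEAD motif, GGAATG on either strand, stood in the windows of 10 of the 27 genes of this list that had one, 37.0%, against 14.8% of all genes tested with a window. The windows of ANKRD1 (chr10:90921038-90921337, minus strand) and CCN2 (chr6:131951323-131951622, minus strand) are shown because these targets fell by very different amounts, with every match in capitals.
ANKRD1: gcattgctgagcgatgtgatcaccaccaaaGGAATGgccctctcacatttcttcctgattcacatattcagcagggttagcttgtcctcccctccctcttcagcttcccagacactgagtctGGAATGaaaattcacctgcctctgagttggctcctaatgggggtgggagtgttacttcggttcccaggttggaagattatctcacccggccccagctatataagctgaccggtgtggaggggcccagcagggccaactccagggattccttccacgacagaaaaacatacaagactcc
CCN2: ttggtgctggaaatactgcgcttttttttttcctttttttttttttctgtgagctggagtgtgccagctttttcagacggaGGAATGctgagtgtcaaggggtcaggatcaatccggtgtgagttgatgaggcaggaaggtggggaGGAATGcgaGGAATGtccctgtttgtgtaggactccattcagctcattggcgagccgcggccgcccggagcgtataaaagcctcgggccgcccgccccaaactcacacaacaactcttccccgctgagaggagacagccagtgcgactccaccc
ANKRD1 held 2 matches and CCN2 3. A link of the motif to the changes was not tested.

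Several immediate early genes, which answer MAP kinase signals within minutes, were lower. Of 33 tested genes of this response and its feedback, out of 36, 12 were called lower and 8 higher, with a median of -0.04, and the count higher was 5, 4, 4 and 5 without OE 2, OE 3, control 2 and control 3. The factor EGR1 fell from 648, 663 and 616 to 426, 378 and 326 (-0.78, SE 0.11). JUN fell from 2532, 1845 and 1772 to 968, 1193 and 1339 (-0.81, SE 0.16). OE 1 was the lowest library for JUN and the highest OE library for EGR1. The phosphatases DUSP5 and DUSP1 switch MAP kinases off. DUSP5 fell from 2304, 2321 and 2621 to 934, 1026 and 889 (-1.35, SE 0.09). DUSP1 fell from 1076, 1083 and 981 to 510.2, 397 and 432 (-1.23, SE 0.11). The groups did not overlap in any of the 4. Other immediate early genes did not fall. IER3, KLF4 and KLF6 were called higher, and FOSL1, FOSL2, JUNB, JUND, IER2 and ZFP36 were not called. Parts of the feedback rose too. SPRY2, an inhibitor of receptor signals, went from 1195, 1198 and 1052 to 1723, 1719 and 1649 (0.56, SE 0.08). The factor ETV1 went from 757, 975.2 and 844 to 1370.1, 1152 and 1247 (0.55, SE 0.11).

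Ligands and receptors of growth factors moved both ways. Of 32 tested of 49, 12 were called higher (7 without OE 2 and 7 without control 3) and 8 lower, with a median of 0.21. Several fibroblast growth factors fell. FGF1 went from 387, 422 and 509.6 to 155, 125 and 154 (-1.59, SE 0.14). FGF5 went from 1772, 1884 and 2081 to 1032, 1076 and 974 (-0.89, SE 0.08). FGF2 went from 889, 925 and 915 to 574, 527 and 504 (-0.77, SE 0.08). The 3 factors had no library in the other group's range. HBEGF, a ligand of the EGF receptor, fell from 462, 470.2 and 520.0 to 283, 281 and 254 (-0.83, SE 0.10). The receptor EGFR fell from 2049, 1975 and 2271 to 1455, 1490.3 and 1314 (-0.56, SE 0.08). Its relative ERBB2 rose from 558, 432 and 443 to 664, 827 and 825 (0.69, SE 0.13). Other ligands of the EGF receptor went up. BTC, betacellulin, rose from 13.96, 13.3 and 16.6 to 41.9, 34.5 and 47.4 (1.43, SE 0.24). TGFA went from 184, 238 and 197 to 342, 311 and 273 (0.58, SE 0.14), and its adjusted p of 0.013 was 0.051 without OE 2 and 0.055 without control 3. The ligands of this receptor thus had no common direction. DDR1, a receptor kinase that binds collagen, rose from 788, 649 and 609 to 1503, 1952 and 2038 (1.42, SE 0.14). The vessel growth factors VEGFA and VEGFC, ligands of neuropilin complexes, were higher. VEGFA rose from 518, 484 and 546 to 789, 868 and 829 (0.68, SE 0.09). VEGFC rose from 116, 149 and 113 to 215, 200.4 and 197 (0.70, SE 0.14).

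Genes of the NF-kB response were more often lower than higher, subunits of the factor included. Of 16 tested of 35, 8 were called lower and 2 higher (1 without OE 2, OE 3, control 2 or control 3), with a median of -0.50 (-0.75 between OE 1 and control 1, -0.55 after the GC correction). The subunit gene NFKB1 fell from 1566, 1624 and 1664 to 1183, 1148 and 1118 (-0.49, SE 0.07). RELB fell from 2389, 1887 and 1708 to 879, 1278 and 1218 (-0.83, SE 0.17). NFKBIA, the inhibitor and a rapid target, fell from 402, 361 and 385 to 244, 269 and 235 (-0.61, SE 0.10). RELB was lowest in OE 1. The cytokine IL32 fell from 683, 579 and 558 to 201, 206 and 245 (-1.48, SE 0.12). In each of these the lowest control lay above the highest OE library. LIF, a cytokine of the IL-6 family, rose from 245, 228 and 238 to 367, 415 and 397 (0.73, SE 0.10).

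The BCL2 family had no common shift, but its BH3-only members, the triggers of mitochondrial cell death, held large single changes. Of 21 tested of 25, 3 were called higher and 4 lower, with a median of 0.03. The count lower was 1 without control 2 and 2 without OE 3 or without control 3. BIK held 20.1, 18.4 and 16.6 in the controls and 141, 236 and 228 with overexpression (3.36, SE 0.23). BMF held 44.5, 41.9 and 22.9 and 211, 208 and 207 (2.54, SE 0.24). HRK fell, from 166, 139 and 158 to 49.1, 54.4 and 57.1 (-1.51, SE 0.15). The groups lay far apart in these 3 genes. BBC3, which encodes PUMA, held 98.6, 70.5 and 53.0 and 104, 163 and 174 with OE 1 0.08 from control 1, and its adjusted p of 0.024 was 0.089 without OE 2, 0.092 without OE 3, 0.08 without control 2 and 0.081 without control 3.

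**Figure D5:**
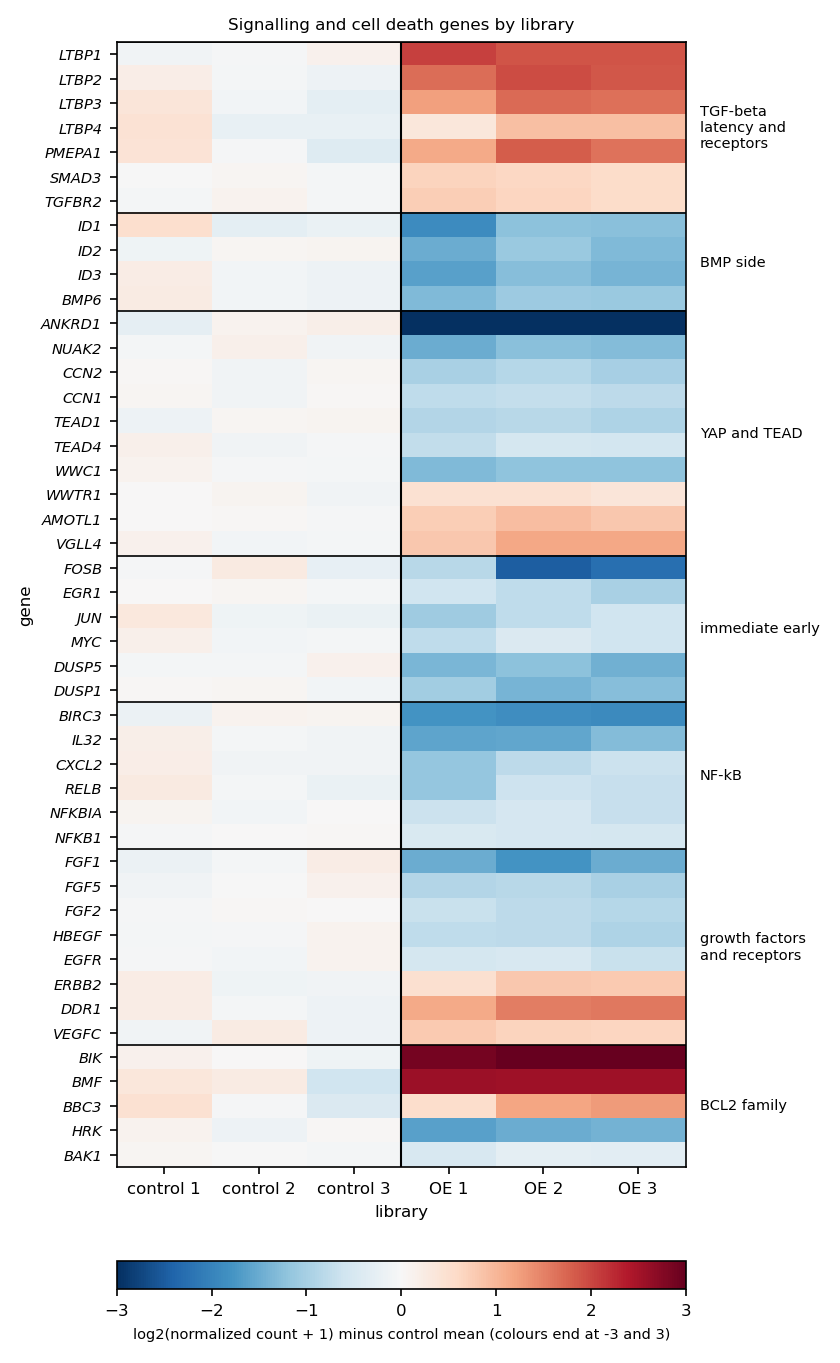
Each row is a gene and each column a library, coloured by log2(normalized count + 1) minus the control mean, with colours ending at -3 and 3. The OE columns are red for the LTBP genes, BIK and BMF. They are blue for the ID genes, ANKRD1 and the immediate early and NF-kB genes chosen for the figure, and FOSB is paler in OE 1 than in OE 2 and 3.

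Genes of cell division were in part lower, by small amounts. Of 58 genes of DNA replication, all that were listed, 32 were called lower and 1 higher, with a median of -0.30 (-0.27 between OE 1 and control 1). The count lower was 21 without OE 2, 20 without OE 3, 20 without control 2 and 19 without control 3. RRM2, the regulated subunit of ribonucleotide reductase, fell from 6017, 6684 and 6691 to 4451, 4598 and 4456 (-0.52, SE 0.07). TIPIN, which protects stalled forks, fell from 571, 674 and 667 to 411, 319 and 353 (-0.82, SE 0.12). Of 50 genes of mitosis 18 were called lower and 2 higher, with a median of -0.22 that was -0.06 between OE 1 and control 1 and -0.14 after the GC correction. Here the count lower was 8 without OE 2, 7 without OE 3, 9 without control 2 and 7 without control 3. The phosphatase CDC25A, which starts S phase, had the largest fall of that list, from 1304, 1328 and 1372 to 724, 670.2 and 665 (-0.96, SE 0.08). The spindle checkpoint target CDC20 fell from 7689.7, 6562 and 6831 to 4166, 4720.5 and 4736 (-0.63, SE 0.09). In bulk libraries fewer dividing cells and less RNA per dividing cell cannot be told apart.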

How the data were processed

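Per the submitters' processing notes, reads were handled with CASAVA, FastQC, Trim Galore, STAR and DESeq2 on hg38. No source used here gives tool versions or the read counter. Per the labels' protocols, libraries were strand-specific and made from total RNA after on-column DNase treatment. Each library's deposited value is a signal, the count divided by a size factor of the authors. Every value was a whole read within 0.01 after that factor was recovered (100% of values), which gave the read totals. The table lists 20707 genes, none with the authors' mean under 1.47. The authors' deposited log2 fold changes and deposited adjusted p-values were compared only by calls: of 4323 genes tested here with an adjusted p under 0.05 in the authors' deposited table, 4182 had the same call here.

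Genes with a mean of at least 10 in either group, 16192, were tested with limma 3.58.1 (trend and robust) in R 4.3.3 on log2(value + 1), without covariates, and the scripts were tested on simulated data. No column of per-sample values was left unmapped. Alternatives used TMM scaling, other filters (none, or a mean of 50), a pseudocount of 5, edgeR 4.0.16, DESeq2 1.42.0 and limma-voom on the recovered reads (edgeR called 4671 genes), the replicate number as a block, a GC correction (natural spline with 5 degrees of freedom), both, and leaving out libraries. Transcript GC and coordinates came from GENCODE 29 (GRCh38), with 99.97% of identifiers matched.

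Genes named are HEPACAM2, the 12 largest rises and 12 largest falls among called genes with no overlap and a mean of at least 50, up to 6 called members of each list chosen the same way, and family members needed to show which chains were called. Genes added beyond these, such as MYC and VIM, were chosen after their values were seen. Some genes that met the rule are not reported here. The members and the gene lists were chosen with earlier results of these data known. Standard errors and p-values of single genes rest on the spread of 3 libraries a group, moderated by limma across the genes tested. The interval of the HEPACAM2 ratio covers counting error only.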

Additional observations from a re-analysis of the deposited data

How the results depend on the processing

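The count of 4665 called genes was 1634 with the replicate number as a block, 8919 without both libraries numbered 1 and 823 at an absolute log2 change of at least 1 (588 higher, 235 lower), and 2674 to 5426 when 1 library was left out. Deviations of the control and OE libraries of the same number correlated at -0.538, -0.181 and -0.306, and OE 1 correlated best with control 3 (0.391). These correlations did not show pairing by number, but a batch shared by number was not tested. The block was therefore kept as an alternative. The other scalings, filters, pseudocount, tools and the GC correction gave 4403 to 6610 calls. Among the genes named, the called ones kept their direction in all 17 alternatives, and 180 of 228 were called in each, with 44 calls lost under the block and 2 to 20 with 1 library left out. The uncalled LAMC1 was at -0.012 without both libraries numbered 1, and HSPA1A was at 0.22 there, 0.0986 without OE 1 and 0.0855 without control 1, in a range from -0.118 to 0.0986 over single libraries left out, and at -0.225 with the GC correction. TEAD3, uncalled too, was at -0.0939 with the GC correction, also with the block. The cause was not tested. The HEPACAM2 ratio was 8796 from mean levels and 8693 from read totals (95% exact binomial interval 4579 to 19011, counting error only). With 3 libraries a group, genes near the threshold change call with 1 library, and genes with a mean under 10 in both groups were not tested. A gene with a mean under 10 in the controls was tested only where its OE mean reached 10, and the reverse.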

Other observations

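Stress response genes of the endoplasmic reticulum and of amino acid shortage rose in part. Of 46 tested 18 were called higher and 28 were not called, with a median of 0.29. The count higher was 14 without OE 2, 13 without control 2, 14 without control 3 and 24 without control 1. Without both libraries numbered 1, 29 were called higher and 6 lower. The called ones included the serine synthesis enzymes PHGDH, at 1044, 991 and 944 in the controls and 2226, 2486 and 2643 with overexpression (1.30, SE 0.09), and PSAT1, at 3488, 3863 and 3778 and 5300.1, 5285 and 5389 (0.52, SE 0.07). ASNS, asparagine synthetase, rose from 76.8, 86.9 and 93.6 to 152, 154 and 155 (0.84, SE 0.14). ALDH1L2, a mitochondrial folate enzyme, rose from 174, 179 and 153 to 461, 415 and 387 (1.32, SE 0.12). The groups did not overlap in these enzymes of amino acid supply. Their known regulator ATF4 was not called, at 4589.5, 5049 and 5053 and 5554, 5352 and 5203 (0.13, adjusted p = 0.19), nor was HSPA5, the chaperone of the endoplasmic reticulum, at 12512, 12486 and 12881 and 11836, 11269.7 and 10486 (-0.17, adjusted p = 0.096), although HSPA5 was called lower without both libraries numbered 1 (adjusted p = 3.5e-05).

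Carriers of amino acids changed singly, with 6 of 29 called higher and 6 lower. The glutamate importer SLC1A3 fell from 43.6, 64.4 and 60.3 to 10.7, 13.3 and 14.9 (-2.02, SE 0.25). The cystine importer SLC7A11 rose from 442, 560.2 and 547 to 891, 937 and 845 (0.79, SE 0.11), and the neutral carrier SLC1A4 from 309.8, 294 and 295 to 662, 779 and 717 (1.26, SE 0.09). Among 38 lipid genes 10 were called higher (5 without OE 2, OE 3, control 2 or control 3) and 3 lower, with the cholesterol exporter ABCA1 at 161, 190.1 and 160.2 and 523, 427 and 437 (1.43, SE 0.12) and the desaturase SCD at 33372, 37941 and 33669 and 63060.1, 59015 and 59458 (0.79, SE 0.08). Among 35 genes of hypoxia and glycolysis 7 were called higher (11 without control 1) and 7 lower (4 without OE 3, control 2 or control 3), and hexokinase HK2 fell from 1298, 1238 and 1230.2 to 622, 735 and 645 (-0.91, SE 0.09).

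Genes of synaptic vesicles and neuroendocrine secretion were called higher in 11 of 24 (6 without OE 2 or control 2, 7 without OE 3 or control 3) and lower in 1. RAB27B, a GTPase of granule docking and a partner of SYTL5, rose from 64.6, 68.5 and 69.7 to 218, 209.7 and 156 (1.498, SE 0.16), and CPE, a peptide-processing enzyme, from 289.7, 292 and 293 to 602, 565 and 568 (0.98, SE 0.09). Of 32 interferon-stimulated genes 16 were called higher (9 without OE 3) and 16 were not called, with IFIT1 at 38.4, 45.0 and 42.6 and 111, 87.6 and 87.0 (1.16, SE 0.18). Of 22 tested replication-dependent histone genes, of 52 listed, 1 was called higher.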
